A study of Mus musculus with 12 samples.

Results

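The genes described here are 10 antioxidant defence genes of the mouse brain: the superoxide dismutases Sod1 and Sod2, catalase (Cat), the glutathione peroxidases Gpx1 and Gpx4, the peroxiredoxins Prdx1 and Prdx6, heme oxygenase Hmox1, the oxidation resistance gene Oxr1 and the glutaredoxin gene Glrx2. They were taken by gene symbol, whatever their values, from the annotation of the arrays. They are represented by 16 probes among 25697, which carry 18097 gene symbols. RNA came from the hippocampus and the cortex of male 3×TgAD mice, a line that carries human transgenes for mutant amyloid precursor protein and mutant tau together with a mutant presenilin 1 and develops plaques and tangles with age. AMI-treated mice received amitriptyline-hydrochloride, a tricyclic antidepressant, at 100 µg per g of body weight in their drinking water for 4 months from the age of 14 months, and vehicle-treated mice received plain water. All mice were 18 months old at harvest. The 4 groups (hippocampus vehicle, hippocampus AMI, cortex vehicle and cortex AMI) hold 3 arrays each, 12 in all. Every group carries the transgenes, so that no comparison with wild-type tissue can be made. The mice of the study also received injections of bromodeoxyuridine or its vehicle, and the sources used here do not say which of these the mice on the arrays received, nor which mouse gave which RNA sample.

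Superoxide dismutases turn superoxide into hydrogen peroxide, Sod1 in the cytosol and Sod2 in mitochondria. Catalase, the glutathione peroxidases and the peroxiredoxins then remove hydrogen peroxide and lipid peroxides, with electrons that come largely from glutathione and thioredoxin. Glutaredoxins use glutathione to release proteins from mixed disulfides, Oxr1 protects neurons against oxidative damage through its TLDc domain, and Hmox1 breaks down heme and is a classic target of the stress-responsive transcription factor NRF2. In the brain these enzymes protect neurons, which use much oxygen and hold many oxidizable lipids.

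Several of the genes were read by more than 1 probe, and the probes of a gene did not always give the same result, so that the places they bind matter for what follows. Each probe is 50 bases long, and 30 bases of each of 9 probes of 4 genes are shown, 5′ to 3′. Positions are those of the first probe base on the transcript of the array annotation. The 3 Glrx2 probes (chromosome 1) and the 2 Oxr1 probes (chromosome 15) are shown from their first base. The annotation lists the Glrx2 probe at position 34 and the Gpx4 probe at position 213 as specific for an isoform, and the Glrx2 probe at position 3157 and the Gpx4 probe at position 628 as reading all isoforms. The latter Gpx4 probe (chromosome 10) spans an exon junction, and its bases in the second exon are in capitals. The 2 Prdx6 probes (chromosome 1) share 48 bases, with a shift of 2 bases between them, and the shared bases are in capitals.
Glrx2, position 34 (ILMN_3023749): tgaatgcgggcgtgaggagctcgggagaac
Glrx2, position 375 (ILMN_1214664): gctggaatatggcaaccagtttcaagatgc
Glrx2, position 3157 (ILMN_3096267): ggcttgtgggaaacaagaggatgtgtggta
Oxr1, position 1845 (ILMN_2639491): gcaggatcgatgctctaaatactgaagaac
Oxr1, position 3968 (ILMN_2697390): cacgctgttgctaaagatgaatagaaacgg
Gpx4, position 213 (ILMN_3027761): tctgctgcaagagcctccccagtactgcaa
Gpx4, position 628 (ILMN_3100812): gggcatgctgggaaaTGCCATCAAATGGAA
Prdx6, position 2241 (ILMN_2623947): ccCCAGGGGCTCAGATTACAAATGTTACCA
Prdx6, position 2243 (ILMN_2623951): CCAGGGGCTCAGATTACAAATGTTACCATC
None of the 16 probes shared a run of 25 bases with a probe of another gene on the array (0 such probes for each).

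Signals are given as normalized log2 signals, in which 0 is the mean of all probes of an array. Each array was also divided by its SD and multiplied by the mean SD of all arrays. A difference of 1 is therefore a doubling of the signal only on an array with that mean SD. Folds below are folds of this rescaled signal. The normalized signals were used as follows. They compare arrays for 1 probe, and never 1 probe with another. A probe was taken as detected on an array where its detection p was 0.05 or less, and the test took probes that 3 or more of a tissue's 6 arrays detected. On each hippocampal array 49.8% to 51.7% of all probes were detected, and on each cortical array 49.0% to 50.8%. In a principal component analysis AMI replicate 1 (-0.60) and vehicle replicate 1 (-0.53) of the hippocampus lay away from the remaining 4 (0.15 to 0.37), and vehicle replicate 3 of the cortex (0.62) lay farthest to the side of AMI replicates 1 and 3 (0.17 and 0.35). Same-numbered AMI and vehicle arrays of the hippocampus are compared below as pairs, but the labels state no pairing. The deviations of these arrays from their group means had correlations of 0.60, 0.29 and 0.28. In the cortex the correlations were -0.06, 0.32 and 0.33. With 3 arrays against 3, an exact permutation test of 1 probe cannot go below a p of 0.1. The p-values given are those of limma, which sets a difference of means against the spread between the arrays of a group.

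Of the 16 probes, 11 were detected on all 12 arrays. The Prdx1 probe at position 1177 was detected on 0 arrays, with a lowest detection p of 0.099, whereas the other Prdx1 probe was among the brighter ones (signals of 1960 to 5504). The Prdx6 probe at position 2243 was also detected on 0 arrays, with a lowest detection p of 0.0702. Its partner, which shares 48 of its 50 bases, was detected on all 12 arrays (signals of 78.8 to 120). Hmox1 was detected on 6 of 6 hippocampal arrays and on 3 of 6 cortical arrays, of which 1 was a vehicle array. The Oxr1 probe at position 1845 was detected on 1 of 6 hippocampal arrays and on 5 of 6 cortical arrays, and the Glrx2 probe at position 34 on 4 of 6 and 3 of 6 arrays. After the filter 13 probes were tested in the hippocampus, 14 in the cortex and 14 between the tissues. All 10 genes had at least 1 tested probe in each tissue.

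**Figure D1:**
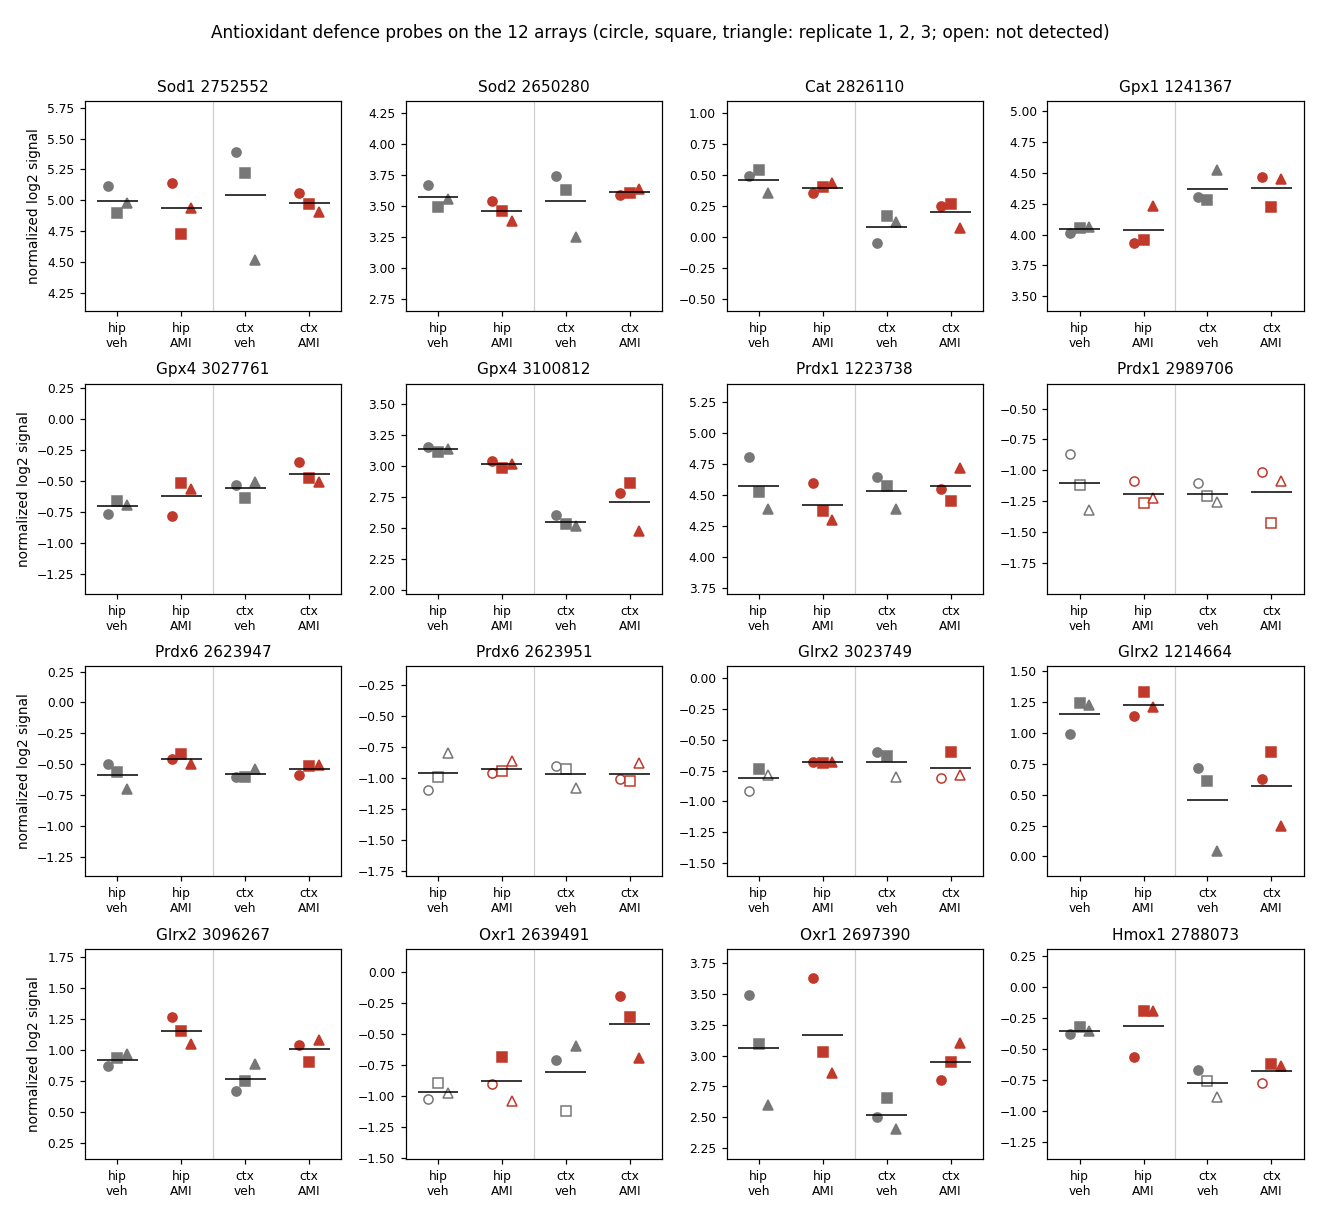
Normalized log2 signal (y axis, 0 is the array mean, each panel spans 1.7 units) of the 16 probes in the hippocampus (hip) and cortex (ctx) of vehicle (veh, grey) and AMI (red) mice. Circles, squares and triangles are replicates 1, 2 and 3, open symbols are arrays on which the probe was not detected, and lines are group means of 3 arrays. The Glrx2 probe ILMN_3096267 lies higher on all 3 AMI arrays than on all 3 vehicle arrays in each tissue, and Oxr1 probe ILMN_2697390 does so in the cortex.

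The first comparison asks whether 4 months of AMI changed the RNA level of these genes in the hippocampus. At an adjusted p under 0.05, 0 of 13 probes differed between AMI and vehicle mice, as did 0% of all 13163 tested probes (limma with Benjamini-Hochberg adjustment, smallest adjusted p of any probe 0.715; the methods' t-test also called 0). In this comparison 7 of the 13 probes were higher and 6 lower after AMI, with a median log2 difference of 0.04, beside 0.01 over all tested probes. At an unadjusted p of 0.05 or less there was 1 probe, of Glrx2, beside 2.35% of all tested probes (1.44% higher after AMI). For 3 of 13 probes the treatments did not overlap (2 higher and 1 lower after AMI), beside 7.89% of all tested probes (4.38% higher and 3.52% lower). Of the 2 higher probes, Glrx2 at position 34 passed the detection filter through its AMI arrays, where it was high. The split into higher and lower probes depended on the scaling: it was 9 and 4 after quantile normalization and 10 and 3 after centring on the median. Median centring, here and below, also leaves out the division by the SD of each array.

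The same question was put to the cortex. Again 0 of 14 probes, and 0% of all 12944 tested probes, passed an adjusted p under 0.05 (limma, smallest adjusted p of any probe 0.153; the methods' t-test also called 0). Of the 14 probes, 12 were higher and 2 lower after AMI, with a median log2 difference of 0.11, beside 0.02 over all tested probes. At an unadjusted p of 0.05 or less there were 3 probes, all higher after AMI, 2 of Oxr1 and 1 of Glrx2, beside 6.28% of all tested probes (4.36% higher). With the array number as a block there were also 3, beside 8.69% of all tested probes. The 3 probes became 1 after quantile normalization, 1 after neqc, and between 1 and 4 when each cortical array was left out in turn. The 4 probes, without vehicle replicate 3, included Sod1, which was lower after AMI (-0.33). For 3 of 14 probes the treatments did not overlap, all higher after AMI, beside 12.2% of all tested probes (8.1% higher). These were Glrx2 at position 3157, Oxr1 at position 3968 and the isoform probe of Gpx4, which lay near background. The lowest AMI array and the highest vehicle array of that Gpx4 probe both read -0.508, so its separation is close to a tie.

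**Figure D2:**
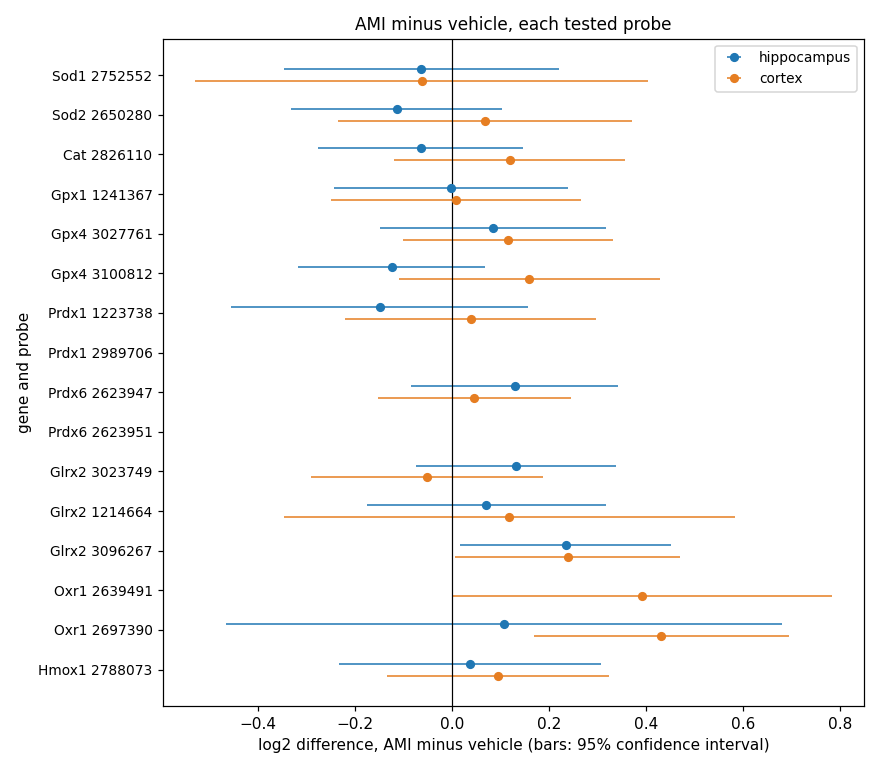
Log2 difference between AMI and vehicle arrays (x axis) of each tested probe (y axis, gene and probe number) in the hippocampus (blue) and the cortex (orange). Points are differences of means of 3 arrays and bars are 95% confidence intervals of the limma fit, not adjusted for the number of probes. Most intervals hold 0, and the widest are those of Oxr1 in the hippocampus and Sod1 and the Glrx2 probe ILMN_1214664 in the cortex.

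With no array left out, AMI and vehicle differed for neither superoxide dismutase at an unadjusted limma p of 0.05 or less in either tissue. Sod1, the cytosolic copper-zinc enzyme (chromosome 16), read 5.12, 4.90 and 4.98 on vehicle replicates 1 to 3 of the hippocampus and 5.14, 4.73 and 4.94 on the AMI replicates. In the cortex it read 5.39, 5.22 and 4.52 on the vehicle arrays and 5.06, 4.97 and 4.91 on the AMI arrays. The groups overlapped in both tissues, and cortical vehicle replicate 3 was the lowest of the 12 arrays. The log2 difference after AMI was -0.06 in the hippocampus (95% interval -0.35 to 0.22) and -0.06 in the cortex (-0.53 to 0.40). The hippocampal value was 0.04 without AMI replicate 2, 0.005 after quantile normalization and 0.10 with median centring. Without vehicle replicate 3 the cortical value was -0.33 (unadjusted limma p of 0.0143, adjusted p of 0.207). It was 0.11 without vehicle replicate 1, and also above 0 without vehicle replicate 2 (0.03), after quantile normalization (0.06), with neqc (0.06) and with median centring (0.09).

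Sod2, the mitochondrial manganese enzyme, read 3.67, 3.49 and 3.56 on the hippocampal vehicle arrays and 3.54, 3.46 and 3.38 on the AMI arrays. In the cortex the vehicle arrays read 3.74, 3.63 and 3.25, and the AMI arrays 3.59, 3.60 and 3.64. Vehicle replicate 3 was again the lowest cortical array, and the 3 AMI arrays of the cortex lay within 0.05 of each other (SD 0.026). The log2 differences were -0.11 (95% interval -0.33 to 0.10) in the hippocampus and 0.07 (-0.24 to 0.37) in the cortex. In the hippocampus AMI was lower in 3 of 3 same-numbered pairs, by 0.14, 0.03 and 0.18, and the difference was 0.01 with median centring. The cortical value was -0.08 without vehicle replicate 3 and -0.06 with array weights.

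Among the enzymes that remove peroxides, catalase (chromosome 2), which works in peroxisomes, read 0.49, 0.55 and 0.35 in the hippocampus of vehicle mice and 0.36, 0.40 and 0.44 after AMI. In the cortex it read -0.04, 0.17 and 0.12 on the vehicle arrays and 0.26, 0.27 and 0.08 on the AMI arrays. The groups overlapped, and the log2 differences after AMI were -0.06 in the hippocampus (SE 0.093) and 0.12 in the cortex (SE 0.104).

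Gpx1, the selenium-dependent cytosolic glutathione peroxidase (chromosome 9), had close to equal means under both treatments. Its mean was 4.04 ± 0.023 (SD, n = 3) in the hippocampus of vehicle mice and 4.04 ± 0.16 after AMI, and 4.37 ± 0.13 and 4.38 ± 0.14 in the cortex. The 95% interval of the difference after AMI (log2) ran from -0.24 to 0.24 in the hippocampus and from -0.25 to 0.27 in the cortex.

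Gpx4, which reduces lipid peroxides in membranes and is the main brake on ferroptosis, was read by 2 probes. The probe that reads all isoforms gave 3.15, 3.12 and 3.14 on the hippocampal vehicle arrays and 3.04, 2.98 and 3.01 on the AMI arrays. The groups did not overlap, and AMI was lower by 0.11 to 0.13 in each of the 3 pairs of same-numbered arrays, although with median centring the difference was -0.02. The log2 difference of -0.12 (SE 0.084) had an unadjusted p of 0.175 and an adjusted p of 0.9996 in limma, which weighs the SDs of a probe (here 0.020 and 0.032) with those of all probes. In the cortex the same probe read 2.60, 2.53 and 2.51 under vehicle and 2.78, 2.86 and 2.48 under AMI, a log2 difference of 0.16 (SE 0.118) in groups that overlapped. The isoform probe lay near background in both tissues (detection p of 0.00125 to 0.0476) and differed by 0.09 (SE 0.102) in the hippocampus and by 0.12 (SE 0.095) in the cortex.

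Prdx1, a thioredoxin-dependent peroxiredoxin, read 4.81, 4.52 and 4.39 in the hippocampus of vehicle mice and 4.60, 4.37 and 4.30 after AMI. AMI was lower in 3 of 3 same-numbered pairs, by 0.21, 0.15 and 0.09 on the log2 scale, but the difference was -0.03 without vehicle replicate 1, -0.09 after quantile normalization and -0.002 with median centring. The groups overlapped, and replicate 1 was the highest and replicate 3 the lowest in both treatments. The log2 difference was -0.15, with an SE of 0.135 and an unadjusted limma p of 0.298, and with the array number as a block the SE was 0.075, the unadjusted p 0.0816 and the adjusted p 0.647. In the cortex Prdx1 differed by 0.04 (95% interval -0.22 to 0.30).

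Prdx6, a peroxiredoxin that uses glutathione and repairs oxidized phospholipids, lay low on the scale and varied little. Its detected probe read -0.50, -0.56 and -0.70 on the hippocampal vehicle arrays and -0.46, -0.41 and -0.50 on the AMI arrays, a log2 difference of 0.13 (SE 0.094), with AMI higher in 3 of 3 same-numbered pairs by 0.04, 0.15 and 0.20. In the cortex it ranged from -0.60 to -0.51 over all 6 arrays, and the difference was 0.05 (SE 0.087).

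Glrx2, the glutaredoxin of mitochondria and nucleus, was higher after AMI without overlap in both tissues for 1 of its 3 probes. The probe at position 3157 read 0.87, 0.93 and 0.97 on the hippocampal vehicle arrays and 1.27, 1.15 and 1.05 on the AMI arrays. In the cortex it read 0.67, 0.75 and 0.89 under vehicle and 1.04, 0.90 and 1.08 under AMI. In each tissue the lowest AMI array lay above the highest vehicle array, by little in the cortex (0.90 against 0.89). AMI above vehicle without overlap in both tissues was found for 0.33% of the 12430 probes tested in both (41 probes), and this was the 1 member probe among them.

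The log2 difference of this Glrx2 probe was 0.23 (SE 0.096) in the hippocampus, a 1.18-fold higher signal, with an unadjusted limma p of 0.0378 and an adjusted p of 0.9996. In the cortex it was 0.24 (SE 0.102), again 1.18-fold, with an unadjusted p of 0.0455 and an adjusted p of 0.781. With the array number as a block the hippocampal unadjusted p was 0.0266 and the adjusted p 0.609, and 8.08% of all tested probes had an unadjusted p of 0.05 or less. The difference was higher after AMI in all 16 alternatives run in the hippocampus and in all 15 in the cortex, but its unadjusted p in the hippocampus was above 0.05 after quantile normalization (0.119), median centring (0.0776) and neqc (0.139), with array weights (0.0585) and without 5 of the 6 arrays in turn. Without both hippocampal arrays numbered 1 the difference was 0.15 (unadjusted p of 0.142). In the cortex the unadjusted p was above 0.05 after quantile normalization (0.144) and neqc (0.165), with the stricter detection filter (0.0555) and without 4 of the 6 arrays in turn. The study names Glrx2 among the stress response transcripts that AMI regulated, a result drawn from these same arrays. Its higher level here is therefore not independent evidence.

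The other Glrx2 probes did not repeat the pattern. The probe at position 375 read 0.99, 1.24 and 1.23 on the hippocampal vehicle arrays and 1.13, 1.33 and 1.20 on the AMI arrays, a log2 difference of 0.07 (95% interval -0.18 to 0.32), which was -0.01 without vehicle replicate 1. In the cortex it read 0.71, 0.61 and 0.04 under vehicle and 0.63, 0.84 and 0.25 under AMI, and the difference of 0.12 had an interval of -0.35 to 0.58. The isoform probe at position 34 lay near background, and differed by 0.13 (SE 0.091) in the hippocampus, where the groups did not overlap, and by -0.05 (SE 0.105) in the cortex. In the hippocampus 3 AMI arrays and 1 vehicle array detected it. It thus passed the filter through the group where it was high, and its separation there is no support for a difference. The cortical difference of the probe at position 375 was -0.09 without vehicle replicate 3, -0.02 without AMI replicate 2 and -0.01 with array weights.

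Oxr1 gave the largest differences after AMI of the tested member probes, and in the cortex both of its probes were higher after AMI. The probe at position 3968 read 2.50, 2.66 and 2.40 on the cortical vehicle arrays and 2.80, 2.95 and 3.10 on the AMI arrays. The groups did not overlap. The log2 difference was 0.43 (SE 0.115, 95% interval 0.17 to 0.69), a 1.35-fold higher signal, with an unadjusted limma p of 0.00503 and an adjusted p of 0.756. Over the alternatives run it lay between 0.31 with array weights and 0.51 without AMI replicate 1, with adjusted p-values from 0.0979 to 0.9998, and its unadjusted p was above 0.05 with all 12 arrays in one fit (0.0677). The study also names Oxr1 among the stress response transcripts that AMI regulated, again from these same arrays, so the higher level of Oxr1 is not independent evidence.

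The Oxr1 probe at position 1845 read -0.71, -1.12 and -0.60 on the cortical vehicle arrays and -0.20, -0.36 and -0.69 on the AMI arrays. The groups overlapped by AMI replicate 3, and vehicle replicate 2 was not detected. Its 3 AMI arrays alone met the detection filter. The log2 difference was 0.39 (SE 0.171), with an unadjusted limma p of 0.0493 and an adjusted p of 0.781, and it was 0.23 without vehicle replicate 2. The unadjusted p was above 0.05 after quantile normalization (0.0603), median centring (0.0664) and neqc (0.0507), and by the methods' t-test (0.145). It was also above 0.05 without vehicle replicate 1, vehicle replicate 2, AMI replicate 1 or AMI replicate 2, each left out in turn. This probe was read too close to background in the hippocampus to be tested.

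In the hippocampus the Oxr1 probe at position 3968 varied more between array numbers than between treatments. It read 3.49, 3.09 and 2.60 on the vehicle arrays and 3.62, 3.02 and 2.86 on the AMI arrays, so that the order of the array numbers was the same in both groups. The log2 difference was 0.11, with an SE of 0.251 and an adjusted limma p of 0.9996. With the array number as a block the SE was 0.087, the unadjusted p 0.256 and the adjusted p 0.746. It was -0.12 without vehicle replicate 3, -0.12 without AMI replicate 1, -0.07 with array weights and 0.32 without vehicle replicate 1.

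Hmox1 (chromosome 8), the inducible heme oxygenase, showed no clear difference with treatment. It read -0.38, -0.33 and -0.36 on the hippocampal vehicle arrays and -0.56, -0.20 and -0.19 on the AMI arrays, of which replicate 1 was lower and replicates 2 and 3 higher than all vehicle arrays. The log2 difference was 0.04 (95% interval -0.23 to 0.31). In the cortex the difference was 0.09 (-0.13 to 0.32), with signals near background.

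**Figure D3:**
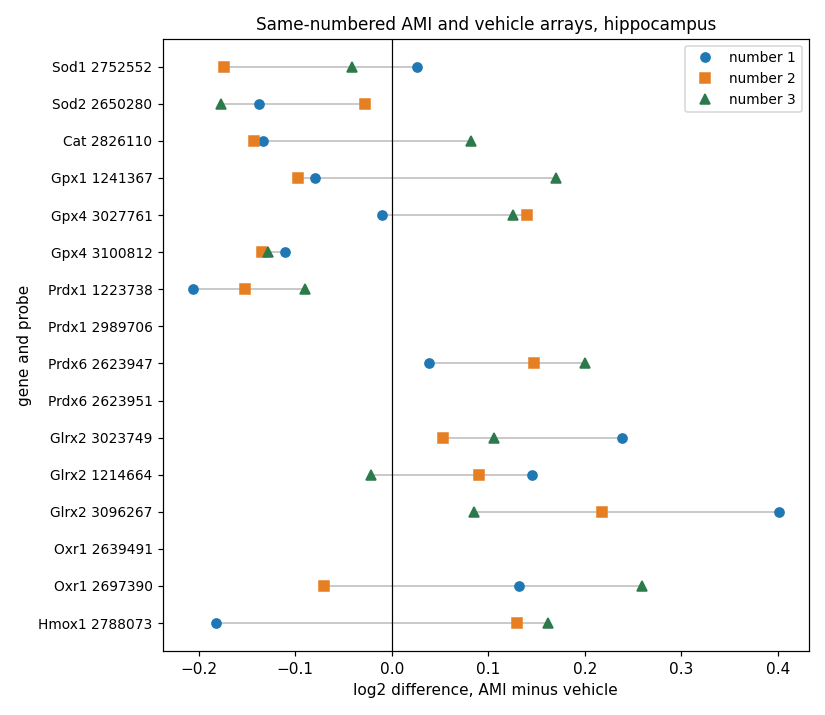
Log2 difference (x axis) between the AMI and the vehicle array of the same number in the hippocampus for each tested probe (y axis, gene and probe number), on the scaling used throughout. Circles, squares and triangles are numbers 1, 2 and 3, and grey lines span the 3 differences. Gpx4 probe ILMN_3100812 lies between -0.13 and -0.11 and Prdx1 below 0 for all 3 numbers, both close to 0 with median centring (-0.02 and -0.002).

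Whether AMI acted unlike in the tissues was tested as the tissue by treatment interaction over all 12 arrays. By limma 0 of 13 probes passed an adjusted p under 0.05, as did 0% of 12430 tested probes, and at an unadjusted p of 0.05 or less there were 0 of 13, beside 3.03% (377) of all tested probes. The difference after AMI was smaller in the hippocampus than in the cortex for 11 of 13 probes, with a median of -0.05 beside -0.02 over all tested probes. The lowest unadjusted p was that of the Gpx4 probe at position 628, at 0.0663 with an adjusted p of 0.9999, for a log2 difference of -0.28 (95% interval -0.59 to 0.02) between the 2 effects. For Oxr1 at position 3968 the difference between the effects was -0.32 (-0.98 to 0.34). For the Glrx2 probe at position 3157 it was -0.004 (-0.29 to 0.29).

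The hippocampus and the cortex differed for 6 of 14 probes at an adjusted p under 0.05, which is 42.9%, near the 43.1% of all 13677 tested probes (24.4% higher and 18.7% lower in the hippocampus). For 4 probes, all higher in the hippocampus, the tissues did not overlap, beside 22.3% of all tested probes (13.5% higher). Of the 6 called probes, 1 is the Oxr1 probe at position 1845, lower in the hippocampus, which entered the test through the cortex alone. The count of called probes is 5 of 13 without it. Glrx2 at position 375, Gpx4 at position 628, Hmox1 and Cat were higher in the hippocampus, and Gpx1 was lower (-0.33), but higher (0.23) with median centring. The tables of the tissues were exported from separate projects and software versions, so tissue and export project cannot be told apart. In bulk tissue a lower share of cells with a transcript and less transcript per cell also cannot be told apart. Centring each array on its median, without the division by its SD, shifted the median difference of all probes from 0.03 to 0.19. The share of higher calls over all probes went from 56.6% to 84.7%. For the members 4 higher and 2 lower became 7 higher and 1 lower.

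The Glrx2 probe at position 375 had the largest tissue difference of the members, 0.67 (SE 0.125, adjusted p = 9.05e-04 in limma), a 1.60-fold higher signal in the hippocampus. Its hippocampal arrays read from 0.99 to 1.33 and its cortical arrays from 0.04 to 0.84, without overlap. The difference was 0.57 without cortical vehicle replicate 3, the lowest array. The Glrx2 probe at position 3157 differed by 0.15 (adjusted p = 0.0771) and the isoform probe by -0.04 (adjusted p = 0.620), so the probes of the gene again gave unlike values.

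The Gpx4 probe at position 628 was 1.36-fold higher in the hippocampus (log2 difference 0.45, SE 0.069, adjusted p = 2.58e-04 in limma), where its arrays read from 2.98 to 3.15, above the 2.48 to 2.86 of the cortex. The isoform probe of Gpx4 went the other way, by -0.16 (SE 0.066, adjusted p = 0.0609), which did not pass. Hmox1 was higher by 0.39 (SE 0.077, adjusted p = 0.00139, 1.31-fold) and read from -0.56 to -0.19 in the hippocampus and from -0.89 to -0.62 in the cortex, where 3 of 6 arrays did not detect it. Cat was higher by 0.29 (SE 0.066, adjusted p = 0.00341, 1.22-fold), with arrays from 0.35 to 0.55 against -0.04 to 0.27. For each of these 3 probes the tissues did not overlap, and the call was kept in every alternative in which the probe was tested.

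Gpx1 was lower in the hippocampus by 0.33 on the log2 scale (-0.33, SE 0.076, adjusted p = 0.00356 in limma), with arrays from 3.94 to 4.23 against 4.22 to 4.52, but the call was lost after quantile normalization (-0.20, adjusted p = 0.0594) and neqc (-0.21, adjusted p = 0.0887), and centring on the median turned the sign (0.23, adjusted p = 0.363). The Oxr1 probe at position 1845, detected on 1 of 6 hippocampal arrays, read from -1.04 to -0.69 there and from -1.12 to -0.20 in the cortex, and its hippocampal level is not well above background. The brighter Oxr1 probe was higher in the hippocampus by 0.38 (SE 0.153, adjusted p = 0.0608), and passed the threshold after quantile normalization (0.38, adjusted p = 0.0413) and median centring (0.76, adjusted p = 0.00120). Sod1 (-0.04), Sod2 (-0.06), Prdx1 (-0.06) and Prdx6 (0.04) had adjusted p-values between 0.603 and 0.816, but the first 3 depended on the scaling. They were above 0 after quantile normalization (0.13, 0.03 and 0.06), with neqc (0.13, 0.03 and 0.06) and with median centring (0.58, 0.41 and 0.52), where Prdx1 passed (adjusted p = 0.0246). With array weights Sod1 (-0.21, adjusted p = 0.0460) and Sod2 (-0.15, adjusted p = 0.0387) passed on the other side.

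**Figure D4:**
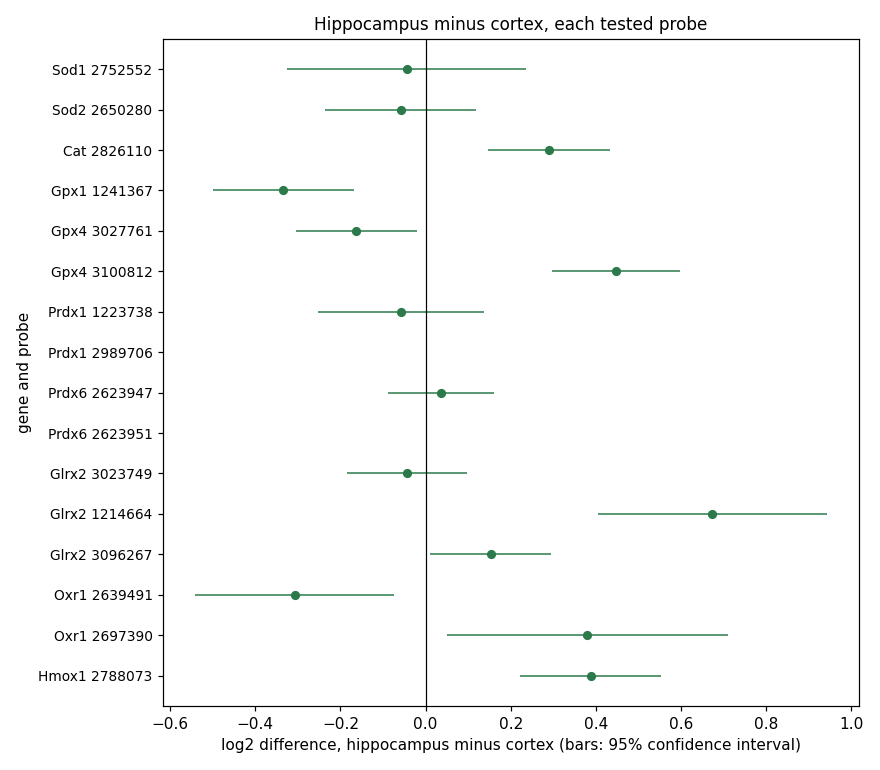
Log2 difference between the hippocampus and the cortex (x axis) of each tested probe (y axis), as the mean of the 6 hippocampal arrays minus that of the 6 cortical arrays. Bars are 95% confidence intervals of the limma fit, not adjusted for the number of probes. The probes of Glrx2, Gpx4 and Oxr1 lie at unlike values. Gpx1 (-0.33) lies above 0 (0.23) when arrays are centred on their median and not divided by their SD, as do Sod1, Sod2 and Prdx1. The Oxr1 probe ILMN_2639491 is near background in the hippocampus.

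The wider antioxidant system was described with 85 related genes in 9 lists, of which 78 are on the arrays. In the hippocampus 57 were tested and 0 passed an adjusted p under 0.05 after AMI. There 20 were higher and 37 lower, with a median of -0.05, and 2 of 57 had an unadjusted limma p of 0.05 or less, beside 2.35% of all tested probes. These were Nqo1, a quinone reductase and NRF2 target, at -0.25 (SE 0.104), and Sepx1, which repairs oxidized methionine, at -0.20 (SE 0.088), both with an adjusted limma p of 0.9996. The split was 34 higher and 23 lower with median centring. Of the glutathione transferases, which conjugate reactive compounds to glutathione, 10 of 11 were lower (median -0.13), and 8 of 11 were lower with median centring. Next to Nqo1 and Sepx1 by p among the lower genes were Blvra (-0.19), which reduces biliverdin, and Gstt1 (-0.22). On the higher side stood Blvrb (0.30), another biliverdin reductase, Txn1 (0.18), the cytosolic thioredoxin, Cyba (0.24), a subunit of the superoxide-producing NADPH oxidase, and Gstm1 (0.16), the 1 transferase that was higher.

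In the cortex 56 related genes were tested and 0 passed, with 36 higher and 20 lower (median 0.05), which became 48 and 8 with median centring. At an unadjusted limma p of 0.05 or less were 2 of 56 genes, beside 6.28% of all tested probes: Bach1, a repressor of Hmox1 and other NRF2 targets, at 0.28 (SE 0.097), and Gpx7, a peroxidase of the endoplasmic reticulum, at 0.23 (SE 0.089), both with an adjusted limma p of 0.756. Prdx3 (0.25), the mitochondrial peroxiredoxin, and Mgst1 (0.22), a membrane-bound transferase, followed. Lower were Nfe2l1 (-0.25), a relative of NRF2, Ggt7 (-0.17), Pgd (-0.14), an enzyme of the pentose phosphate pathway that supplies NADPH, and Park7 (-0.13), which encodes DJ-1. The glutathione transferases were higher for 8 of 11 genes in the cortex, with a median of 0.04, and for 10 of 11 with median centring.

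Between the tissues 35 of 57 related genes passed (61.4%, beside the 43.1% of all probes), 23 higher and 12 lower in the hippocampus, which became 29 and 1 with median centring. The shares are not of like probes, since each related gene was read by its brightest probe and the share of all probes counts every tested probe. Higher were Gpx2 (0.82), an epithelial glutathione peroxidase, Gsta4 (0.73), which clears the lipid peroxidation product hydroxynonenal, Mod1 (0.66, malic enzyme 1, a source of NADPH), Mafg (0.62), a partner of NRF2 on DNA, Gstm1 (0.60) and Txn1 (0.57). Lower were the secreted peroxidase Gpx3 (-0.67), Pgd (-0.43), the cystine transporter subunit Slc7a11 (-0.43), Tkt (-0.36), Mgst3 (-0.36) and Prdx4 (-0.33), the peroxiredoxin of the endoplasmic reticulum.

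**Figure D5:**
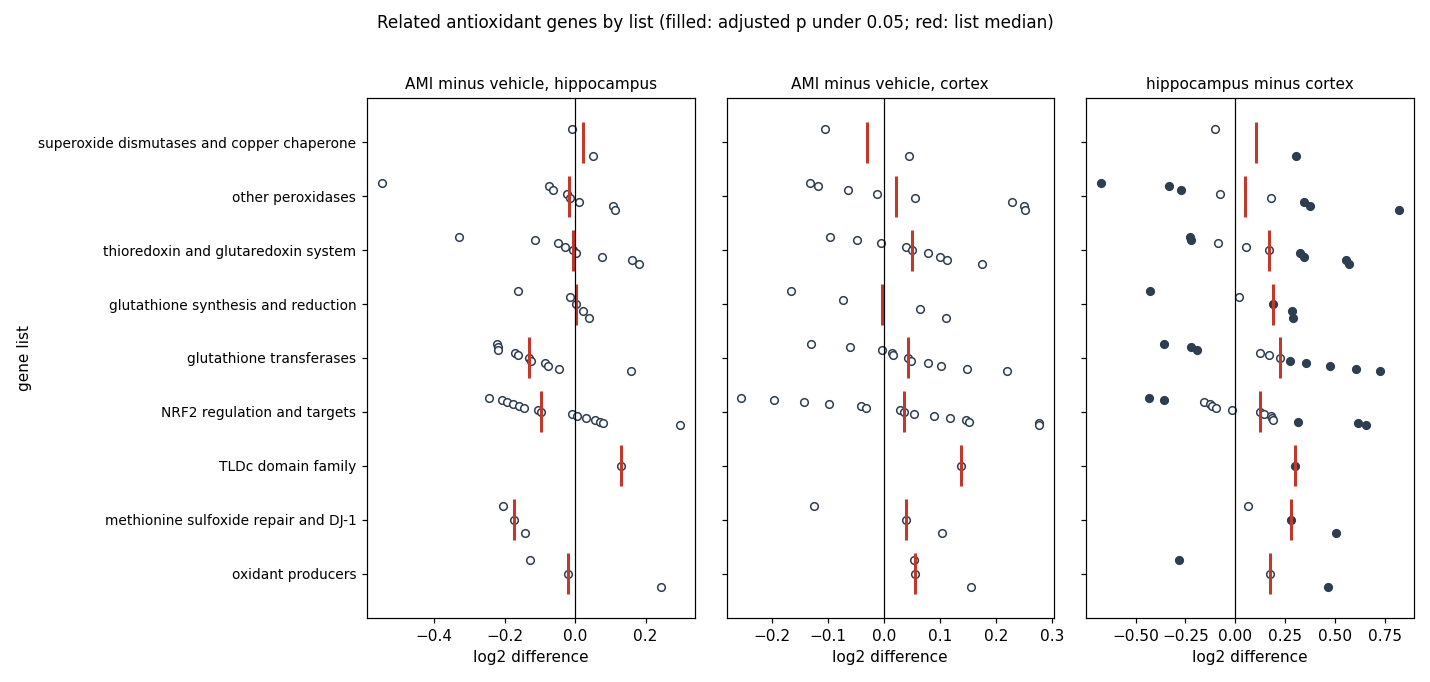
Log2 differences (x axis, scales differ between panels) of the related genes in 9 lists (y axis) after AMI in the hippocampus (left) and the cortex (middle), and between hippocampus and cortex (right). Points are genes, filled at an adjusted limma p under 0.05, and red lines are list medians. In the AMI panels 0 points are filled, and in the tissue panel 35 of 57 are.

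Markers of other cells also differed in level between the groups, and their part in the values above was not tested. Of 62 markers on the arrays 52 hippocampal and 54 cortical tests were made, and 0 passed an adjusted p under 0.05 after AMI in limma, with 4 and 3 at an unadjusted p of 0.05 or less. In the hippocampus 8 of 8 oligodendrocyte markers were lower (median -0.40, 3 at an unadjusted p of 0.05 or less) and 3 of 3 tested choroid plexus markers were lower (median -1.03), with summed signals of 1958 to 51261 under vehicle and 1214 to 4573 under AMI. Hemoglobin and other red cell markers were higher for 3 of 3 tested genes (median 0.76, summed signals of 4170 to 10194 under vehicle and 6365 to 27741 under AMI, Hbb-b2 detected on 0 arrays), and red cells hold much catalase and Sod1. In the cortex 4 of 4 tested striatal markers were lower after AMI (median -0.43, 2 at an unadjusted p of 0.05 or less, summed signals of 3772 to 4495 under vehicle and 2992 to 4037 under AMI). Between the tissues 43.1% of all tested probes were called (24.4% higher and 18.7% lower in the hippocampus), and the marker calls stand beside that share. There 8 of 8 microglial markers were higher in the hippocampus (median 0.46, 7 called), and 4 of 4 striatal markers lower (median -1.78, 4 called). Oligodendrocyte markers were lower in the hippocampus for 7 of 8 genes (median -0.36, 4 called lower and 1 higher). Endothelial markers were lower for 7 of 7 (median -0.27, 2 called) and neuronal markers for 5 of 5 tested (median -0.27, 2 called). As checks of the tissue labels, Prox1 and Dsp of the dentate gyrus were higher in the hippocampus by 1.17 and 1.13, and 4 of 5 cortical markers were lower there, Fezf2 (0.81) being the exception.

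NRF2 acts through the antioxidant response element, and its core TGACNNNGC was searched on both strands in the RefSeq promoters of GRCm38.p6 (250 bases before to 50 after each start). Of the members 7 were matched, with 13 promoter windows. Sod1 and Prdx1 held a match each, 2 of 7 genes, beside 14.0% of 27025 genes in the table. The windows of Glrx2, Cat, Gpx1, Gpx4 and Sod2 held 0 matches. Both matches, which are on the reverse strand of the gene, are shown with the matched bases in capitals, as the matches found in these 13 windows. Hmox1, Prdx6 and Oxr1 were not searched.
Sod1, chr16:90220696-90220725, plus strand: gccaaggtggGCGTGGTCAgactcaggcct
Prdx1, chr4:116685456-116685485, plus strand: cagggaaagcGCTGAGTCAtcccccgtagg
The match starts 56 bases before the start of Sod1 and 133 bases before that of Prdx1. Such a match is a description of the letters and not a binding site.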

How the data were processed

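RNA of hippocampus and cortex was hybridised to Illumina MouseRef-8 arrays of 25697 probes, 3 arrays per tissue and treatment. The authors deposited, for each tissue in a table of its own, the mean bead intensity of each probe from the scanner software (BeadStudio 3.4 or, for the cortex, GenomeStudio 1.1.1), neither normalized nor background-subtracted, and a detection p-value; a column per array maps to each sample by its label. The deposited intensities were turned into log2 here without an added constant (lowest 36.2), centred on the mean of each array and divided by its SD, as the methods state, and rescaled to log2 units with the SD averaged over 12 arrays (1.60). The test took probes that 3 or more of a tissue's 6 arrays detected, where detected means a detection p up to 0.05. AMI and vehicle were compared within a tissue, and tissues and interaction over all 12 arrays, with limma 3.58.1 (lmFit, eBayes) in R 4.3.3 and Benjamini-Hochberg adjustment over all tested probes. The estimates were checked on simulated data with independent noise and changes larger than any seen for the members. That check does not show how the tests perform on changes as small as those of the members.

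The members and gene lists were chosen with earlier results of these data known. Named genes are all members, every probe; of the related genes, the 4 with the smallest p per direction and AMI comparison, and the 6 largest differences per direction among those called between tissues, with 1 probe per gene, that of the highest mean signal. Deviations of same-numbered AMI and vehicle arrays from their group means correlated in the hippocampus (0.60, 0.29 and 0.28). The pairs used there are a reading of the data, since the labels state no pairing. The median signal of undetected probes was 52.2 to 63.3 in the hippocampus and 65.1 to 73.2 in the cortex, which limits differences of dim probes, and the number of arrays limits precision. Alternatives of scaling were quantile normalization, neqc (offset 16) and median centring, which did not divide by the SD of an array. Others were no or a stricter detection filter, the array number as a block (statmod 1.5.0 for the random block), array weights and all arrays in one fit. The methods' unpaired test, their cutoffs, and each array left out in turn were also run. The genome build of the probe annotation is not given in the sources used here, so probes are placed by chromosome and transcript position. Python 3.11.15 with pandas 2.3.3, numpy 2.4.6 and matplotlib 3.10.9 served for sequences and figures.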

Additional observations from a re-analysis of the deposited data

How the results depend on the processing

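The count of all probes called at an adjusted p under 0.05 stayed 0 in the AMI comparisons and in the interaction under most alternatives. The exceptions were 1 probe in the hippocampus without AMI replicate 2 (0 to 1 over the arrays left out), and in the cortex 2 with neqc, 2 with array weights, 3 by the cutoffs of the study's methods and 1 without AMI replicate 3 (0 to 1 over the arrays left out). Member probes among these were 0 in each alternative in which they were counted. At an unadjusted p of 0.05 or less the hippocampal count of 309 became 1063 with the replicate block, 1305 with array weights, 72 with median centring and 906 without both arrays numbered 1 (chosen after seeing the data). The cortical 813 became 2954 with array weights, 433 with median centring, 1960 without vehicle replicate 3 and 375 without vehicle replicate 2. The replicate block left the adjusted calls at 0 and changed no other member call. In the cortex the correlations of same-numbered arrays were -0.06, 0.32 and 0.33, and across tissues they ran from -0.33 to 0.08. The cortical count with the block was 1125. Between tissues the 5891 calls ranged from 4450 with the stricter detection filter to 7805 with array weights, and member calls from 4 to 11. Gpx1 reversed from -0.33 to 0.23 with median centring (adjusted p = 0.363); the cause was not tested. A slide as a block was not run, since no slide is named in the sources used here. Signals near background limit Hmox1, Prdx6, the isoform probes of Glrx2 and Gpx4 and the dim Oxr1 probe.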
